A study of Homo sapiens with 17 samples.

Results

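Primed distal sites are stretches of chromatin that carry H3K4me1 but not H3K27ac and lie away from gene ends, and those described here also lacked a summit of HNRNPU, a nuclear RNA-binding protein. H3K4me1 is placed at enhancers chiefly by the methyltransferases KMT2C and KMT2D. An enhancer with H3K4me1 alone is usually called primed, since H3K27ac, written by the acetyltransferases EP300 and CREBBP, is the mark that accompanies activity. Pluripotent cells are known to hold many such sites around genes used later in development.

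The sites were chosen from 17 CUT&Tag libraries of H1, a long-used line of human pluripotent stem cells. In CUT&Tag an antibody guides the transposase Tn5 to the chromatin it binds, and the reads pile up there. The groups were cells grown in mTeSR1 that received a virus carrying shHNRNPU#1, shHNRNPU#2 (shRNAs against HNRNPU) or shLUC (against luciferase, as control), followed by puromycin selection, and untransfected cells, from which the HNRNPU libraries came. H3K4me1 and H3K27ac each had 4 shHNRNPU libraries, 2 per shRNA, and 2 shLUC libraries. HNRNPU had 2 libraries, and POLIIS2P, a name that the labels do not explain, had 1 of shHNRNPU#1 and 2 of shLUC. Nothing in the labels says that repeats came from separate cultures, so p-values measure only the spread between these libraries, which may be technical. No library measured the HNRNPU transcript or protein after knockdown, so its depth is not known here.

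The titles of the 4 histone libraries of shLUC cells name the opposite antibody to that in their peak lists. The members were chosen by the name in the peak list, so the shLUC lists called H3K4me1 below carry the title H3K27ac, and the reverse. Of their 20000 strongest summits, the lists named H3K4me1 shared 68.2% to 73.5% within 250 bp with H3K4me1 libraries of shHNRNPU cells and 18.2% to 25.8% with H3K27ac libraries. The lists named H3K27ac shared 46.4% to 55.6% with H3K27ac libraries of shHNRNPU cells and 20.9% to 24.3% with H3K4me1 libraries. If the titles were right, the rule would pick out other sites, 2133 in number, of which H3K4me1 libraries of shHNRNPU cells held a mean of 0.117% and H3K27ac libraries 56.1%. The 8 tested differences are also given under the titles in the account of the processing alternatives, and the other values were not recomputed.

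A member was one of the 20000 highest-scoring summits of the first shLUC list named H3K4me1, on chromosomes 1 to 22, with a summit of the second list within 250 bp, no summit of either shLUC list named H3K27ac and of either HNRNPU list within 500 bp, and more than 1000 bp from any end of a RefSeq protein-coding gene. The first list held 179137 summits, and 19771 of its strongest were autosomal. Of these, 19306 were found in the second list and 17887 of those lay away from gene ends. Removing sites with H3K27ac left 8550, and removing those with HNRNPU in 1 list (1499) or both (614) left 6437 members, 32.6% of the autosomal summits. The H3K4me1, H3K27ac and HNRNPU summits named in the rule fixed the choice and are not findings. The last member by score was at rank 19994 in BICD1 (chr12:32156301, score 23.4951), and the first summit left out by rank was at 20001 in RERE (chr1:8755183, score 23.4895). The score is −log10 of a p or q value.

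The label primed was compared with libraries that the rule did not use. A member was said to carry a mark in a library when 1 of its 40000 strongest summits lay within 250 bp (H3K4me1) or 500 bp (H3K27ac and POLIIS2P). H3K4me1 was found at 85.4% and 83.6% of members in the shHNRNPU#1 libraries and at 89.2% and 90.5% in the shHNRNPU#2 libraries, a mean of 87.2% ± 3.19 (SD, n = 4). H3K27ac was found at 4.05% and 3.51% after shHNRNPU#1 and at 7.55% and 7.60% after shHNRNPU#2, a mean of 5.68% ± 2.20 (SD, n = 4). POLIIS2P was found at 10.7% of members (690 sites, 95% Wilson interval 9.99% to 11.5%) after shHNRNPU#1 and at 9.45% (8.75% to 10.2%) and 9.62% (8.92% to 10.4%) in the shLUC libraries. Such intervals cover counting error only. Over all strongest summits the shares per library were 88.0% to 92.5% for H3K4me1, 26.8% to 36.7% for H3K27ac and 29.0% to 30.4% for POLIIS2P. Members were thus below the whole list for each antibody, little so for H3K4me1.

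The cells' identity was read from summits at the ends of marker genes. Among 10 pluripotency genes, 5 had a POLIIS2P summit at a gene end in all 3 libraries (LIN28A, SALL4, PRDM14, DPPA4 and DNMT3B) and 7 in at least 1. POU5F1 and SOX2 were among those with none. None of 6 fibroblast and 4 blood genes had a POLIIS2P summit there, while H3K27ac summits of at least 1 shHNRNPU library stood at 1 and 2 of them and at 6 of the 10 pluripotency genes, at 0 of which all 4 libraries had one. Lists ranged from 40487 summits (H3K27ac, shHNRNPU#1) to 214333 (H3K4me1, shHNRNPU#2), the HNRNPU lists held 35526 and 34649, and read depth is unknown.

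Members lay at a longer median distance from gene ends than all strongest summits beyond the same 1000 bp limit. In gene bodies lay 3761 (58.4%), and 2676 (41.6%) lay outside any protein-coding gene. Over all strongest summits beyond 1000 bp from a gene end the share in gene bodies was 59.6%, near the members' value. The median distance to the nearest gene end was 41758 bp (quartiles 12561 and 113059 bp) and the longest was 1978002 bp. For all strongest summits beyond 1000 bp the median was 34466 bp. Members over 100 kb from a gene end numbered 1809, or 28.1%, against 23.7% of all 18322 strongest summits beyond 1000 bp from a gene end. The share was 24.2% of the 1598 active distal sites without HNRNPU (H3K27ac in both shLUC lists) and 15.6% of the 614 primed distal sites with HNRNPU in both lists, the 2 sets used for comparison throughout. Their median distances to a gene end were 36174 bp and 19570 bp. The members' median rank, 11238, was lower in the list than that of the active sites (10187.5) and the HNRNPU-bound primed sites (8721). Chromosome 4 had the highest share of members among its strongest summits (38.2%, 384 of 1004) and chromosome 19, a gene-dense chromosome, the lowest (15.95%, 78 of 489).

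Members were mostly solitary. The median distance between neighbours was 194552 bp, and 70 had another member within 1000 bp. Spacing was not computed for all strongest summits, so this is not shown to be particular to members. The nearest H3K27ac summit of the shLUC lists was at a median of 7597 bp and the nearest HNRNPU summit at 14156 bp. For 294 members (4.57%) an H3K27ac summit lay just beyond the limit, up to 1000 bp away, and for 172 an HNRNPU summit did. A further deposited list of HNRNPU intervals for the whole series came within 500 bp of 55 members.

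A few runs of members stood close together when members up to 10000 bp apart were chained. The longest had 5 members over 20160 bp in ARID1B (chr6:156866358-156886517), which encodes a subunit of the BAF chromatin remodelling complex. Runs of 3 included those in ROR1, a receptor for WNT5A, in CLYBL and in DSCAML1, and a pair of such runs at BLACAT1 and LEMD1 (chr1:205431037-205441224 and chr1:205452080-205459141). Runs were not computed for all strongest summits.

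No genome came with the data, so sequence could be shown only where a member fell inside a RefSeq promoter window (GRCh38.p14, 250 bases before to 50 after a listed transcript start). This happened for 76 members (1.18%), against 2.13% of all strongest summits beyond 1000 bp from gene ends and 4.54% of all strongest summits, which include those at gene ends. Since members lie over 1000 bp from gene ends, those in protein-coding genes are starts within the gene body. The 76 members fell in 80 windows, 44 of protein-coding genes and 36 of long noncoding RNAs. The stretches below show the 6 members of highest mean H3K4me1 percentile in shHNRNPU cells whose summit falls inside the printed run, because CpG content is where these windows can be compared with other promoters. Each run is 100 bases around or near the summit, all upstream of the start but not always next to it, 5′ to 3′ on the gene's strand, with every CpG in capitals.
CASC23: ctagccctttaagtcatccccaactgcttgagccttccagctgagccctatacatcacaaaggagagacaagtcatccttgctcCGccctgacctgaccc
PDE4D: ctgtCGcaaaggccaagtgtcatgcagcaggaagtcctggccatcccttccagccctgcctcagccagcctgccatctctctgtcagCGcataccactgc
FGD4: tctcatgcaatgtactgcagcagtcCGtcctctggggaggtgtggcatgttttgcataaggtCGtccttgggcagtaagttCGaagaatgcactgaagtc
TRAK1: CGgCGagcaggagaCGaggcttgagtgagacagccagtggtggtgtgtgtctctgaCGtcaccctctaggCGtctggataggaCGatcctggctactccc
DRD3: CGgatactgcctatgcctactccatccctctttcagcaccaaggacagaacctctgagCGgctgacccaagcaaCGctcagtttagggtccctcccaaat
ATOSA: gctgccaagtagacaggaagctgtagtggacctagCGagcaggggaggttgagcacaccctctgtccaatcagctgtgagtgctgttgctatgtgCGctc

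The runs lie on the minus strand at chr11:8016522-8016621 (CASC23), chr5:59356971-59357070 (PDE4D), chr3:114178914-114179013 (DRD3) and chr15:52652069-52652168 (ATOSA), and on the plus strand at chr12:32534222-32534321 (FGD4) and chr3:42149135-42149234 (TRAK1). They hold 1 to 6 CpGs. CASC23 is a long noncoding RNA gene, PDE4D encodes a cAMP phosphodiesterase, FGD4 an exchange factor for the GTPase CDC42, TRAK1 an adaptor for mitochondrial transport and DRD3 a dopamine receptor. All 6 members carried H3K4me1 in 4 of 4 shHNRNPU libraries, but they were picked by their percentiles in these libraries, so this is a description. Only TRAK1 of the 6 carried POLIIS2P in 3 of 3 libraries, and PDE4D, FGD4 and DRD3 carried neither POLIIS2P nor H3K27ac in any list at full length.

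The members' windows were poorer in CpG than promoters at large, with a smaller CpG gap to the windows of all strong distal summits. Their median was 6 CpGs and 50.8% G and C in 300 bases, with an observed-to-expected CpG ratio of 0.309. The medians of all 33725 autosomal windows were 14 CpGs, 58.7% and 0.581, and those of the protein-coding windows alone 21 CpGs, 62.7% and 0.743. Windows of long noncoding RNAs had a median of 5 CpGs, 50% and 0.286. Windows holding any strongest summit beyond 1000 bp from gene ends had medians of 9 CpGs, 58.3% and 0.375. Those summits lie away from gene ends as members do, and the part of this limit in the gap to all promoters was not tested. HNRNPU-bound primed sites fell in windows with a median of 16 CpGs and a ratio of 0.556, and active sites in windows with 7 CpGs and a ratio of 0.305. Motifs were sought on both strands of the 80 windows, with no motif contained in another. The octamer ATGCAAAT was in 2.5% (1.75% of all windows), TATAAA in 12.5% (11.6%), CCAAT in 32.5% (34.4%) and CACGTG in 2.5% (7.18%). These are descriptions of letters, with no test.

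H3K4me1 was found again at most members after knockdown. In the 40000 strongest summits 4542 members (70.6%) were found in all 4 shHNRNPU libraries, against 77% of all strongest summits, and 128 (1.99%, against 1.68%) in none. With all deposited summits 5928 (92.1%) were found in all 4, against 93.1%, and 6434 in at least 1, which is 99.95% against 99.7%. In the 40000 strongest summits the members' share found in all 4 libraries was thus below that of the whole list. With all deposited summits the 2 shares were near each other. The median member stood at the 90.2nd percentile of both shHNRNPU#1 lists and at the 92.1st and 93.5th percentile of the shHNRNPU#2 lists.

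H3K27ac was found at few members, and mostly in a single library. It was found at 1063 members (16.5%) in at least 1 shHNRNPU library, against 51.9% of all strongest summits, at 5374 (83.5%, against 48.1%) in none, and at 16 (0.249%) in all 4, against 15.6%. The rule removed sites with H3K27ac in shLUC cells, so a low share is built in. With all deposited summits 1549 members (24.1%, against 60.1%) had H3K27ac in at least 1 library, 4888 (75.9%, against 39.9%) in none and 30 (0.466%, against 18%) in all 4. Of the 1063 members, 768 had it in a single library, against 3116 of 10252 for all strongest summits. At HNRNPU-bound primed sites, which also lacked H3K27ac in shLUC cells, the count was 134 of 204. A single library was thus usual there too, and is not particular to members.

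POLIIS2P was found at 1064 members (16.5%, against 39.5%) in at least 1 of 3 libraries, at 5373 (83.5%, against 60.5%) in none and at 290 (4.51%, against 21%) in all 3. With all deposited summits the counts were 1770 (27.5%, against 53.3%), 4667 (72.5%, against 46.7%) and 473 (7.35%, against 29%). Neither H3K27ac in a shHNRNPU library nor POLIIS2P in any library was listed at 3723 members (57.8%). POLIIS2P was listed at 39.1% of the 1549 members with H3K27ac in some shHNRNPU library and at 23.8% of the 4888 without. These joint shares were computed for members only, with none over all strongest summits, so they show nothing particular to members.

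**Figure D1:**
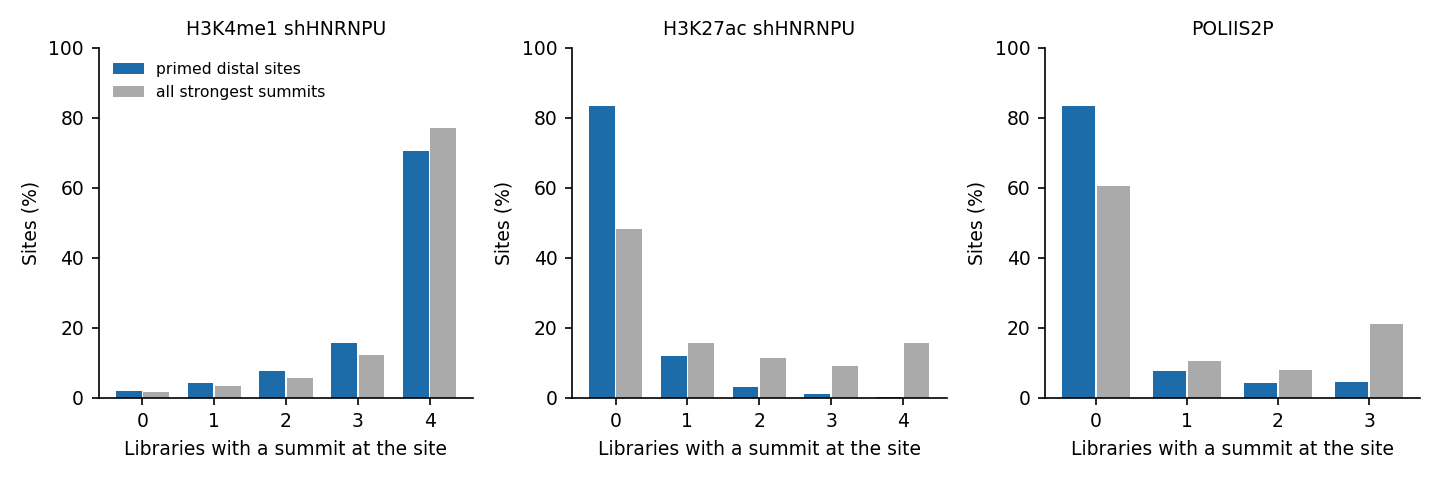
Share of sites (%, vertical axis) by the number of libraries with a summit at the site (horizontal axis), for H3K4me1 and H3K27ac in the 4 shHNRNPU libraries and POLIIS2P in 3 libraries, 40000 strongest summits each. Blue bars are the 6437 primed distal sites and grey bars all 19771 strongest summits; 70.6% of the blue sites had H3K4me1 in all 4 libraries, and 83.5% had H3K27ac in none.

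Members were compared with active distal sites for how often H3K4me1 was found again. H3K4me1 of shHNRNPU cells was found at 92.3% ± 1.62 (SD, n = 4) of active sites. The members' share was lower by 5.12 percentage points, in 4 of 4 libraries (two-sided exact sign-flip permutation test over libraries, p = 0.12, the smallest this design allows). In each rank class below the first the members were also lower: among summits ranked 4001 to 8000 the means were 96.4% and 98.3%, and among those ranked 16001 to 20000 they were 75.4% and 83.5%. Within ranks 1 to 4000 the members stood at 99.6% and the active sites at 99.1%, so close to 100% that a gap could hardly show. With all deposited summits the difference was −1.31 points, and members were higher than active sites in both shHNRNPU#2 libraries (98.63% against 98.50% and 99.15% against 99.00%). In the 40000 strongest summits H3K4me1 was found at 93.4% ± 1.46 (SD, n = 4) of HNRNPU-bound primed sites. These sites also lacked H3K27ac in shLUC cells. They had stronger ranks than members (median 8721 against 11238) and lay closer to gene ends (median 19570 bp against 41758 bp). The part of either in the members' lower share was not tested.

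Members and HNRNPU-bound primed sites both lacked H3K27ac in shLUC cells, and were compared to see whether they differed after knockdown. H3K27ac was found at 12.2% ± 4.82 (SD, n = 4) of the bound sites in shHNRNPU cells and at 5.68% of members, a difference of −6.50 percentage points, with members lower in 4 of 4 libraries (exact sign-flip permutation test, p = 0.12, the smallest possible). Members had the lower mean in all 5 rank classes, from 7.67% against 18.4% at ranks 1 to 4000 to 5.07% against 10.4% at ranks 16001 to 20000. Bound sites lay closer to gene ends (median 19570 bp against 41758 bp), and the part of this in the difference was not tested beyond the stricter limit of 5000 bp, where it was −7.96 points.

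POLIIS2P, which the rule did not use, was also compared. It was found at 29.6% ± 0.438 (SD, n = 3) of active sites and 42.8% ± 1.72 (SD, n = 3) of HNRNPU-bound primed sites. Members were lower by 19.7 and 32.9 percentage points, in 3 of 3 libraries each (exact sign-flip permutation test, p = 0.25 for each, the smallest possible). The order was the same in each rank class, with members at 15.5% and 7.17% in the first and last class. It also held inside and outside gene bodies: in gene bodies members carried POLIIS2P at 12.8% to 14.3%, active sites at 38.6% to 39.9% and bound sites at 52.7% to 54.3%. Outside gene bodies the shares were 4.75% to 5.72%, 9.19% to 11.6% and 29.8% to 34.8%. At members the shHNRNPU#1 library was the highest in both places (14.3% against 12.8% and 13.1% in gene bodies, 5.72% against 4.78% and 4.75% outside). The same held at HNRNPU-bound sites (54.3% against 53.3% and 52.7%, 34.8% against 30.4% and 29.8%) and, outside gene bodies, at all distal strongest summits (17.0% against 15.6% and 15.01%), and with 1 library this was not tested.

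**Figure D2:**
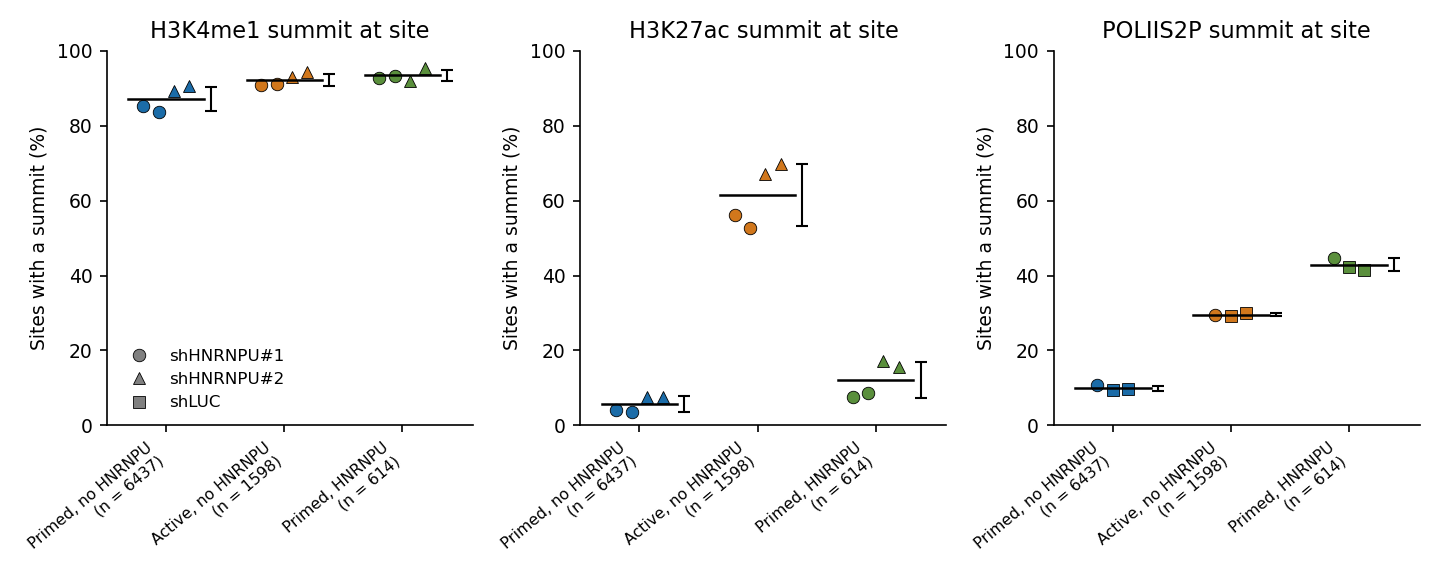
Share of sites with a summit (%, vertical axis, from 0) for 3 sets of distal sites and 3 antibodies, 1 point per library, with the mean as a line and the SD as a bar. Circles are shHNRNPU#1, triangles shHNRNPU#2 and squares shLUC; primed sites without HNRNPU had the lowest mean for each antibody, and the high H3K27ac of active sites follows from how they were chosen.

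**Figure D3:**
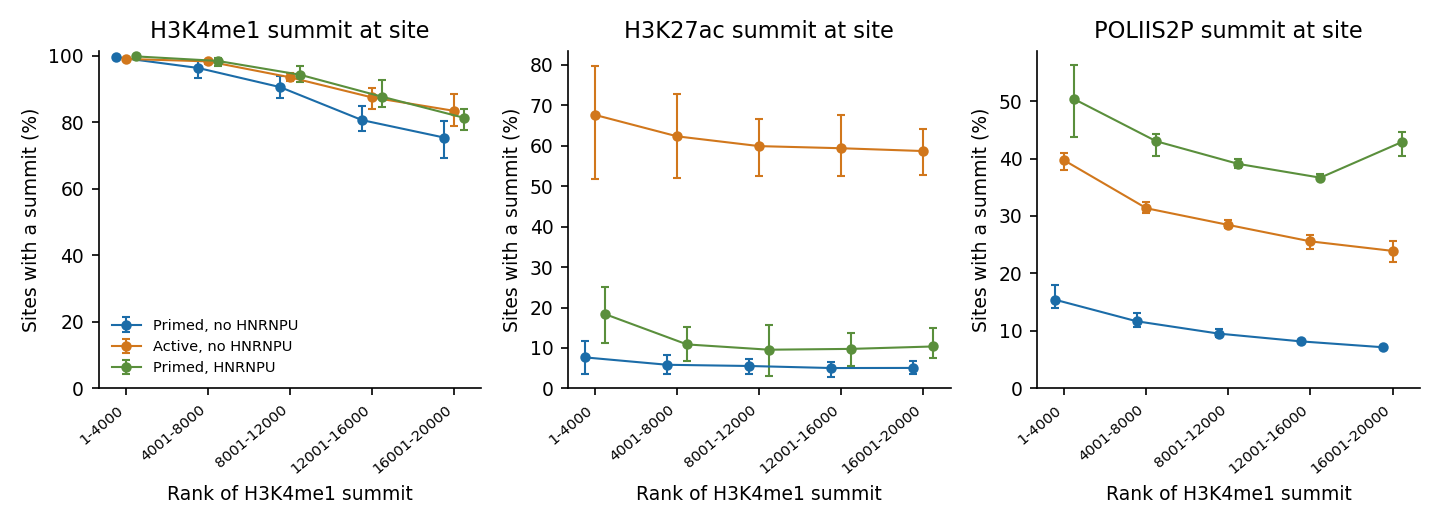
Share of sites with a summit (%, vertical axis) by rank class of the H3K4me1 summit in the first shLUC list (horizontal axis, strongest at the left), with points for the mean over libraries and bars from the lowest to the highest library. POLIIS2P at primed sites without HNRNPU fell from 15.5% in the first class to 7.17% in the last and stayed under both other sets.

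**Figure D4:**
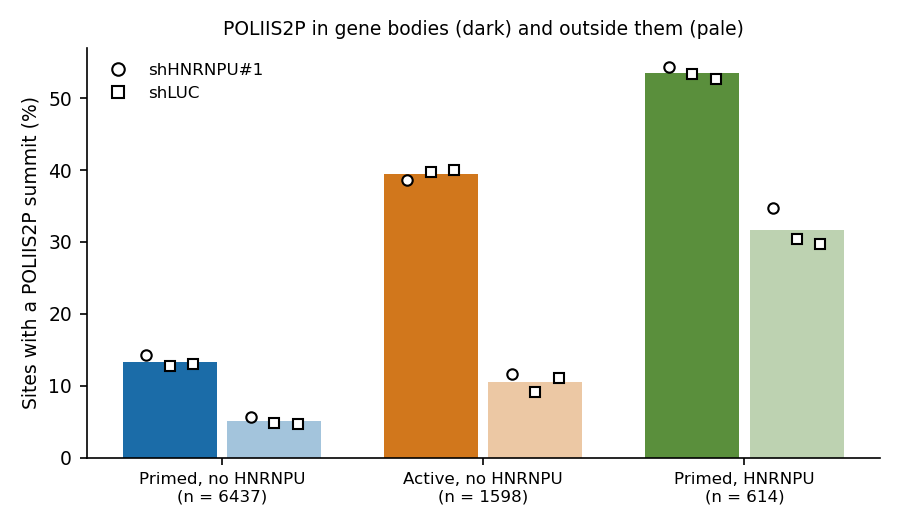
Share of sites with a POLIIS2P summit (%, vertical axis) in gene bodies (dark bars) and outside protein-coding genes (pale bars) for 3 sets of sites, where bars are the mean of 3 libraries and points the libraries. Primed sites without HNRNPU reached 14.3% at most in gene bodies and 5.72% outside them.

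All 8 tests of this account had a Benjamini-Hochberg adjusted p of 0.444 or more, and by their design none could pass 0.05.

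The shRNAs were then set side by side. H3K4me1 was found at 84.5% of members after shHNRNPU#1 and 89.8% after shHNRNPU#2, a difference of −5.31 points with no overlap between 2 and 2 libraries (two-sided exact permutation test, p = 0.333, the smallest possible). Over all strongest summits the same libraries gave 88.2% and 91.6%, so the whole list moved the same way. H3K27ac was found at 3.78% of members after shHNRNPU#1 and 7.57% after shHNRNPU#2, a difference of −3.79 points with no overlap (exact permutation test, p = 0.333), and at 27.9% and 36.3% of all strongest summits. The H3K27ac lists of shHNRNPU#1 were the shorter (51655 and 40487 summits against 75264 and 85142), as were its H3K4me1 lists (147145 and 152096 against 174625 and 214333), and their part in these differences was not tested.

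A comparison of shHNRNPU with shLUC cells needs a shLUC library that had no say in the choice. Sites were therefore chosen again with 1 shLUC repeat of each antibody, and read in the other repeat and in the 4 shHNRNPU libraries. Chosen with the first repeat, 8227 sites were H3K4me1 sites without H3K27ac and HNRNPU. The left-out shLUC list held H3K4me1 at 90.0% of them, and the shHNRNPU libraries at 84.8% and 83.1% (shHNRNPU#1) and 88.3% and 89.9% (shHNRNPU#2). With the second repeat there were 6914 sites, found at 91.7% in the left-out list and at 85.3%, 84.0%, 89.7% and 90.9% in the same libraries. Each shHNRNPU library was thus below the left-out list, those of shHNRNPU#2 by little.

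The mean difference over both choices was −3.83 points (87.0% against 90.8%, exact permutation test over 1 and 4 libraries, p = 0.4 as the larger of the 2 choices, where 0.2 is the smallest possible). Taken alone, shHNRNPU#1 gave −6.53 points and shHNRNPU#2 −1.13, a split looked at after the data were seen. Over all strongest summits of the first repeat the left-out list held 92.4%, the shHNRNPU#1 libraries 88.4% and 88.0% and the shHNRNPU#2 libraries 90.7% and 92.5%.

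H3K27ac at the same sites did not move in 1 direction. At the 8227 sites the left-out shLUC list held H3K27ac at 9.23%, shHNRNPU#1 libraries at 7.73% and 6.44% and shHNRNPU#2 libraries at 11.9% and 12.3%. At the 6914 sites the values were 5.89%, then 5.81% and 4.63%, then 9.66% and 10.1%. Both shHNRNPU#1 libraries lay below shLUC, 1 of them nearly level with it at the 6914 sites, and both shHNRNPU#2 libraries lay above it. The mean difference was 1.02 points (8.57% against 7.56%, exact permutation test, p = 1), and it turned to −1.40 with shHNRNPU#1 alone and was 3.44 with shHNRNPU#2 alone. With all deposited summits in place of the strongest it was −1.30 points. Over all strongest summits of the first repeat the left-out list held 35.01%, shHNRNPU#1 libraries 29.0% and 26.8% and shHNRNPU#2 libraries 36.0% and 36.7%, and over those of the second repeat 32.6%, then 30.7% and 28.2%, then 37.6% and 38.3%, so the whole list was ordered the same way.

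**Figure D5:**
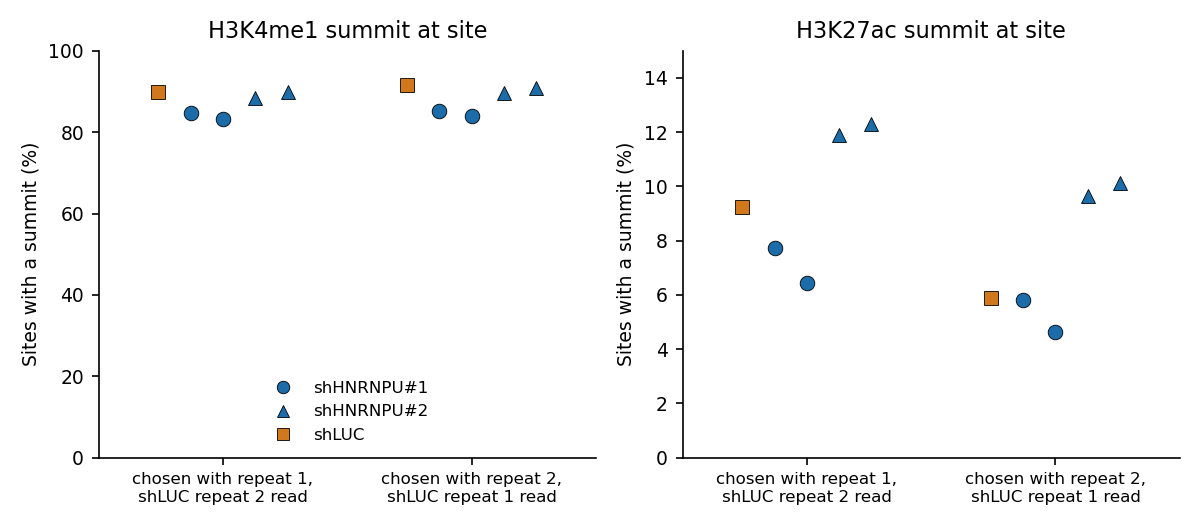
Share of H3K4me1 sites without H3K27ac and HNRNPU that had a summit (%, vertical axis from 0, to 100 for H3K4me1 and to 15 for H3K27ac) in the left-out shLUC library (orange squares) and the shHNRNPU libraries (blue circles and triangles), for sites chosen with each shLUC repeat. For H3K27ac the shLUC square lies between the circles of shHNRNPU#1 and the triangles of shHNRNPU#2 in both choices, nearly level with a circle when the sites were chosen with the second repeat.

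The 10 members with the strongest H3K4me1 in shHNRNPU cells lay in or near genes of varied function. The first was at chr1:26417203 in the body of LIN28A, an RNA-binding protein that blocks maturation of let-7 microRNAs and marks pluripotent cells. It ranked 22 in the shLUC list and stood at a mean percentile of 99.98 in the H3K4me1 lists of shHNRNPU cells. It was also the member with the highest mean POLIIS2P percentile (99.74 after shHNRNPU#1, 99.00 and 99.35 in shLUC cells), and had H3K27ac in 1 of 4 shHNRNPU libraries.

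The site in PKM, the pyruvate kinase of glycolysis (chr15:72226895, rank 23), had POLIIS2P at percentiles 98.61, 96.14 and 95.14 and no H3K27ac. In INTS3, a subunit of the Integrator complex (chr1:153749571), POLIIS2P was found in 3 of 3 libraries and H3K27ac in both shHNRNPU#2 libraries (percentiles 96.49 and 98.11) and neither shHNRNPU#1 library. In ACVR1, a type I receptor for BMPs (chr2:157839209), POLIIS2P stood at percentiles 84.41, 86.32 and 78.92. All 3 sites stood at the 99.88th percentile or higher of each H3K4me1 list of shHNRNPU cells, which follows from how they were picked.

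Other strong members had little else. The sites in BACH2, a transcriptional repressor of lymphocytes (chr6:90287102), near NRIP1, a corepressor of nuclear receptors (chr21:15222218, 156282 bp away), and near UNC5CL (chr6:40999689) had no H3K27ac, and POLIIS2P only in 1 shLUC library at BACH2. The site 1217 bp from FGF1, a fibroblast growth factor (chr5:142699287), and that in RAB7A, a GTPase of late endosomes (chr3:128784476), had POLIIS2P in 2 of 3 libraries. The site in ARHGAP15 (chr2:143759669) had no POLIIS2P and had H3K27ac in 3 of 4 libraries.

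A further 5 members were picked for H3K27ac in most shHNRNPU libraries, over all deposited summits, with ties broken by the mean percentile. The first lay 30879 bp from SRP9, a subunit of the signal recognition particle (chr1:225746947). Its H3K27ac percentiles were 68.16 and 84.57 (shHNRNPU#1) and 75.34 and 81.86 (shHNRNPU#2). The site in MYPN, a protein of the muscle sarcomere (chr10:68097366), had 68.63, 66.67, 88.82 and 79.33, and no POLIIS2P. In DISP1, which releases Hedgehog ligands from cells (chr1:222928449), the values were 78.61, 82.75, 44.10 and 93.77. Sites near RIPK2 and in MRPS9 also had H3K27ac in all 4 libraries, with POLIIS2P in 3 of 3. These 5 were picked by the number of libraries and by these percentiles, so both are descriptions.

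After LIN28A the members with the highest POLIIS2P were near PLPP2 (chr19:295325), in DHX30, an RNA helicase (chr3:47837892), 1130 bp from LRP1, a lipoprotein receptor (chr12:57214491), and near EFCAB12 (chr3:129383484). They were picked by POLIIS2P, so their mean percentiles, which lay from 98.14 to 98.72, are descriptions. The DHX30 and LRP1 sites had no H3K27ac in any library.

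Genes with many members were long. Members lay in the bodies of 2369 of 19122 autosomal protein-coding genes, 1576 of which held 1 member and 74 of which held 5 or more. Genes holding any strongest summit were not counted in this way. PRKG1, a cGMP-dependent kinase, held 13 members among 18 strongest summits over 1307463 bp. Of the 13, 0 carried POLIIS2P in the 40000 strongest summits of any library, where 60.5% of all strongest summits had none. ARID1B held 12 members among 22 strongest summits in 434754 bp. Of the 12, 11 had H3K4me1 in all 4 shHNRNPU libraries, against 77% of all strongest summits. DAB1, an adaptor of Reelin signalling, held 12 among 23 in 1551949 bp. NTM, a cell adhesion protein of neurons, and ROR1 held 10 each, and ADGRL3, CLYBL, DLGAP1 and TCF4 held 9 each. All strongest summits numbered 22 in NTM, 17 in ROR1, 11 in ADGRL3, 15 in CLYBL, 22 in DLGAP1 and 18 in TCF4.

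Per 100 kb of gene body the order was another. Among genes of at least 50000 bp FAM167A (5.51 members per 100 kb), SCG5, a chaperone of prohormone convertase (5.42), VAPB, a tether of the endoplasmic reticulum (4.85), TSPAN14, a tetraspanin (4.39), and LEMD1 (4.37) led, with 3 members each. All strongest summits in these genes numbered 4, 3, 5, 8 and 3 in the same order. PRKG1 had 0.994 and ARID1B 2.76. In LEMD1 all 3 members carried POLIIS2P in some library and 1 had H3K4me1 in all 4 shHNRNPU libraries. FAM167A, SCG5 and VAPB had 3 of 3 members with H3K4me1 in all 4 and none with POLIIS2P or H3K27ac in the 40000 strongest summits. Over all strongest summits 77% had H3K4me1 in all 4, 39.5% had POLIIS2P in some library and 51.9% had H3K27ac in some.

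Genes of the pluripotent state were surveyed within 100 kb. Of 12 autosomal core pluripotency genes 9 had a member, 15 members in all, which is 0.233% of members against 0.293% of all strongest summits. SOX2 had 6, POU5F1 2, and CRIPTO, DNMT3B, DPPA4, L1TD1, LIN28A, NANOG and UTF1 1 each. Of the 15 members 13 had H3K4me1 in all 4 shHNRNPU libraries, 3 H3K27ac in some and 1, that in LIN28A, POLIIS2P. LIN28B, PRDM14 and SALL4 had no member.

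Naive pluripotency genes had 8 members at 7 of 12 genes (0.124% against 0.137%). Near the 12 genes lay 0 active sites and 0 HNRNPU-bound primed sites. SUSD2, a surface marker of naive cells, had 2, and DNMT3L, DPPA3, DPPA5, KLF17, KLF5 and ZFP42 had 1 each. None of the 8 had H3K27ac. Genes of the formative and primed states had 20 members at 11 of 13 genes (0.311% against 0.283%), of which 18 had H3K4me1 in all 4 libraries. ZIC2, a zinc finger factor of primed cells, had 4, DUSP6, a phosphatase acting on ERK, and OTX2 3 each, POU3F1 and SOX11 2 each and CDH2, ETV4, ETV5, FGF2, FOXD3 and FZD7 1 each.

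Genes of later lineages were surveyed in the same way. Mesendoderm regulators had 14 members at 9 of 18 genes (0.217% against 0.147%), while 0 of the 1598 active sites and 3 of the 614 HNRNPU-bound primed sites (0.489%) lay within 100 kb of them. FOXA2, a factor of endoderm, had 4, EOMES and MSX1 2 each, and GATA4, HAND1, LHX1, MSX2, TBX6 and TBXT 1 each. Of the 14, 10 had H3K4me1 in all 4 libraries, 2 had H3K27ac in some and 0 POLIIS2P.

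Neural regulators had 27 members at 14 of 23 genes (0.419% against 0.314%), beside 0 active sites and 8 HNRNPU-bound primed sites (1.303%). LHX5, POU3F2, ZIC1 and ZNF521 had 3 each, LHX2, NES, PAX6, POU3F3 and SIX3 2 each, and EMX2, IRX1, IRX2 and NEUROG1 1 each. Neither member near PAX6, a factor of the eye and forebrain, had H3K4me1 in all 4 libraries, while at LHX5 all 3 did. Neural crest regulators had 18 members at 8 of 12 genes (0.280% against 0.223%), with 4 each at SOX5 and TFAP2A, 2 each at ETS1, NR2F1, PAX3 and PAX7 and 1 each at SNAI2 and TFAP2B.

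Trophoblast and amnion regulators had 4 members at 3 of 9 genes (0.0621% against 0.0961%), 2 near KRT7, a keratin, and 1 each near TEAD4 and TP63. Writers and readers of enhancer marks had 12 members at 6 of 12 autosomal genes (0.186% against 0.202%). KDM5B and KMT2D had 3 each, CREBBP and HDAC2 2 each and KDM1A and SMARCA4 1 each. Of these 12, 6 had POLIIS2P and 5 H3K27ac in some library. KMT2D and CREBBP thus each had members close by, and KMT2C and EP300 had none. All strongest summits within 100 kb numbered 8 at KMT2D, 3 at CREBBP, 1 at KMT2C and 0 at EP300, so few or none could be members at the last 2.

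Genes of FGF, Nodal, BMP and WNT signalling had 49 members at 22 of 30 genes (0.761% against 0.855%). The ligands had 1 or 2 members (NODAL and BMP2 2 each, BMP4, BMP7, WNT3 and WNT5A 1 each) and FGF8, LEFTY1 and LEFTY2 none. Among receptors BMPR1A had 6, FGFR1 3, and FGFR2, ACVR2B and FZD5 1 each. TCF7L2, a DNA-binding effector of WNT signalling, had 9, of which 4 had POLIIS2P in some library, SMAD3 and TCF7L1 had 4 each and LEF1 3. Among feedback and target genes ID3 had 3, and AXIN2, DUSP4, ID2, SMAD7, SP5 and SPRY4 1 each.

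Neuronal adhesion genes had 64 members at 17 of 20 genes (0.994% against 0.723%). NTM had 10, UNC5D, a netrin receptor, 9, NRXN3 5 and CNTNAP2 4. CADM2, CDH13, CNTN4, CNTN5, CTNNA2, LSAMP, ROBO1 and ROBO2 had 3 each, DCC and NCAM1 2 each and LRRC4C and LRRTM4 1 each. Of the 64, 46 had H3K4me1 in all 4 shHNRNPU libraries, 13 had H3K27ac in some library and 5, all near UNC5D, had POLIIS2P. Near the other lists active sites numbered 2 (core pluripotency), 5 (formative and primed), 6 (writers and readers), 10 (signalling) and 10 (neuronal adhesion). HNRNPU-bound primed sites there numbered 1, 4, 2, 7 and 2. These counts and shares were not tested and show nothing particular to a list.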

How the data were processed

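Human H1 cells were profiled by CUT&Tag in 17 libraries. Per the labels, the submitters' processing notes name cutadapt, Bowtie2, SAMtools, MACS2, deepTools and hg38, with no role or version. The authors deposited 1 list of peak summits per library with a score, read from its layout as −log10 of a p or q value and used to rank summits within a list only, and 48095 HNRNPU intervals for the whole series, of which only positions were used. Read depth is unknown, and lists were cut to their 40000 strongest summits to equalise length. The study listed with these data describes other cells, and its methods were not used.

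Distances between summits, and to ends of 20052 RefSeq protein-coding genes (GRCh38.p14), were computed in Python 3.11.15 with numpy 2.4.6 and pandas 2.3.3, and tested on simulated lists. Tests were two-sided exact permutations over libraries. Named sites were the 10 members of highest mean H3K4me1 percentile in shHNRNPU cells, 5 by H3K27ac and 5 by POLIIS2P, the members at the score limit, the 10 genes with most members, the 5 with most per 100 kb, and every gene of the fixed lists with a member within 100 kb. The members and lists were chosen with earlier results of these data known. List length, matching distance, gene-end distance, antibody by title and each library were varied. Some genes that this rule names are not reported here.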

Additional observations from a re-analysis of the deposited data

Results flagged for a closer look

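H3K27ac at sites chosen with 1 shLUC repeat lay on average on opposite sides of the left-out shLUC list under the shRNAs. With the second repeat 1 shHNRNPU#1 library was nearly level with that list (5.81% against 5.89%). With the first repeat the shHNRNPU#1 libraries lay on average −2.14 percentage points from the left-out shLUC list and the shHNRNPU#2 libraries 2.87 points above it. With the second repeat the values were −0.665 and 4.00 points. This difference between the shRNAs was not tested. It is not particular to these sites: over all strongest summits the left-out shLUC list also lay between the shRNAs, at 35.01% against 29.0% and 26.8% (shHNRNPU#1) and 36.0% and 36.7% (shHNRNPU#2) with the first repeat, and at 32.6% against 30.7%, 28.2%, 37.6% and 38.3% with the second. The H3K27ac lists of shHNRNPU#1 held 51655 and 40487 summits and those of shHNRNPU#2 75264 and 85142, and the part of list length was not tested.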

How the results depend on the processing

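All 8 differences were recomputed with the 20000 strongest or all deposited summits, doubled distances, a limit of 5000 bp from gene ends, the antibody by title, and without each library. No p passed 0.05 under any setting, which says nothing about stability. With the antibody by title H3K4me1 under shHNRNPU#1 against shHNRNPU#2 turned to 0.0938 points and H3K27ac to 4.66, and the members numbered 2133. The other differences kept their sign under the titles but moved to −50.8 (H3K4me1 found again), 52.7 (H3K27ac at left-out sites), −44.2 (H3K4me1 against active sites), −25.6 (H3K27ac against HNRNPU-bound sites), −7.82 and −44.6 points (POLIIS2P against active and bound sites). H3K27ac of shHNRNPU against left-out shLUC cells turned to −1.30 with all deposited summits and −1.40 with shHNRNPU#1 alone; the cause was not tested. List length moved other sizes by over 1.5 times with no change of sign: H3K4me1 found again was −1.02 with all deposited summits, H3K4me1 against active sites −8.96 with the 20000 strongest and −1.31 with all, H3K27ac between shRNAs −2.01 and −8.38, H3K27ac against HNRNPU-bound sites −2.63 (20000), POLIIS2P against active sites −10.3 and −30.6 and against bound sites −21.4 (20000), and H3K4me1 between shRNAs −3.00 (all). Members numbered 2788 from the 10000 strongest summits, 5655 beyond 5000 bp, 6382 without the series-wide HNRNPU intervals and 6402 when joined within 1000 bp.

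Leaving out each library gave −6.18 to −4.43 and −4.06 to −3.52 points (shRNAs, H3K4me1 and H3K27ac), −4.96 to −2.68 and 0.138 to 2.03 (left-out shLUC), −5.56 to −4.30 (active sites), −7.52 to −5.48 (HNRNPU-bound sites), and −20.2 to −19.3 and −33.4 to −32.3 (POLIIS2P). The replicate block left the shRNA differences at −5.31 and −3.79 points (exact permutation, p = 0.5). Over members the deviations of same-numbered libraries correlated at −0.068 (H3K4me1) and −0.0301 (H3K27ac). With so few repeats this cannot tell whether same-numbered libraries shared a culture or batch, which the labels do not say.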
